A study of Mus musculus with 55 samples.

Results

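Lungs of mice injected once with sodium arsenite were compared with lungs of mice injected with saline, 8 h after the injection. The comparison used 9 of the 55 arrays of the series. Arsenite mice (4, with replicate letters A, B, C and F) received 1 mg/kg sodium arsenite in saline into the peritoneum, and saline mice (5, letters B, C, D, E and F) received saline alone. All were male C57BL/6 mice (C57BL/6J in the study's methods) on the AIN-76A diet, a purified diet, and were 6 weeks old when they began 2 weeks on that diet before treatment. The labels name the mice as biological replicates, and each mouse had 1 array of whole-lung RNA. The remaining arsenite mouse, letter E, was left out because its array stood apart from every other in the comparison. Dexamethasone and arsenite mice (5, both agents at 1 mg/kg) and dexamethasone mice (5, 1 mg/kg), also taken 8 h after injection, hold a second measurement of the arsenite response with no mouse in common. Dexamethasone is a synthetic glucocorticoid. Control mice without injection (5, kept for 5 weeks on the same diet) give a further level for each gene.

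Trivalent arsenic binds the thiol groups of proteins. Cells exposed to it are known to induce heat shock proteins through the transcription factor HSF1, heme oxygenase and glutathione genes through NRF2, metallothioneins through MTF1, and CHOP and its targets through the integrated stress response. Arsenite has also been studied as a disruptor of signaling by the glucocorticoid receptor, the receptor that dexamethasone activates. The lists described below follow these pathways and the cell types of the lung.

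The deposited values are log2 values, on which a difference of 1 is a 2-fold change of signal. The 9 arrays had medians of 4.27 to 4.33, SDs of 2.36 to 2.41 and correlations of 0.98 to 0.994 with the rest of their group. The array of arsenite E had an SD of 1.17 and a correlation of 0.265. Lung markers were present in all 9 mice. Sftpc, the surfactant protein of alveolar type II cells, was between 14.13 and 14.30, Scgb1a1 of club cells between 14.10 and 14.26, and Ager of alveolar type I cells between 13.27 and 14.10. Markers of other tissues differed between lungs. Mean levels of 8 fat genes were 9.80 in saline E and 8.48 in saline D, against 4.51 to 6.50 in the other mice. Mean levels of 11 thymus genes were 7.76 in saline E, against 4.61 to 4.81 in the others. In RNA of a whole organ, fewer cells of a type and less RNA per cell cannot be told apart.

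No probe set passed the test. A model across all 45037 probe sets (limma, Benjamini-Hochberg) called 0 at an adjusted p under 0.05 (0% of those tested), and the lowest adjusted p was 0.197. Without arsenite B, 4 probe sets were higher and 1 lower at that threshold. The rank product, a test the study used that assumes equal spread across probe sets, called 64 higher and 253 lower. At an unadjusted p under 0.05, 3028 probe sets were past the threshold, which is 6.72% of those tested. Counted by gene, 875 of 18193 genes were higher in arsenite mice at an unadjusted p under 0.05 (4.81%) and 649 were lower (3.57%). All 4 arsenite mice lay above all 5 saline mice for 450 genes (2.47%) and below them for 152 (0.835%). The median difference over all genes was 0.009. The values below are therefore a description of the genes and groups with the largest differences, each read against these shares. Unless named as adjusted or exact, p is the unadjusted p of that model. An exact p is a two-sided permutation test over the 9 mice, whose smallest possible value is 0.0159.

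Genes higher in arsenite mice with the smallest p were led by Hlx, a homeobox transcription factor. Hlx was at 8.36, 8.28, 8.13 and 8.47 in arsenite mice A, B, C and F, against 7.81, 7.96, 7.79, 7.60 and 7.73 in saline mice B, C, D, E and F, an order of mice kept below. The groups did not overlap, and the difference was 0.53 ± 0.09 (SE, p = 8.75e-06, adjusted p = 0.197, exact p = 0.0159). In uninjected mice Hlx averaged 8.52 ± 0.14 (SD), nearer to the arsenite mice than to the saline mice. Ddit3, which encodes the stress factor CHOP, was at 8.36, 8.05, 8.47 and 8.17 in arsenite mice and 7.51, 7.76, 7.69, 7.69 and 7.88 in saline mice. For this probe set every arsenite mouse was above every saline mouse, by 0.56 ± 0.12 on average (p = 0.000194, exact p = 0.0159). Fosl2, the AP-1 subunit FRA-2, was at 9.11, 8.76, 9.10 and 9.19 in arsenite mice and 8.65, 8.69, 8.54, 8.45 and 8.19 in saline mice. These values did not overlap either (difference 0.54 ± 0.14, p = 0.00112, exact p = 0.0159). The other probe set of each of these genes was close to 0, with a difference of 0.095 for Ddit3 and 0.006 for Fosl2, and so was that of Ifngr2 (0.078) and Ifit1bl2 (0.033). Of the 12 genes of smallest p on the higher side, 9 had groups that did not overlap (all genes, 2.47%). Picking genes by p in these same mice favours such a separation, so the count is a description only. The 12 also included Ifngr2, a chain of the interferon gamma receptor (7.55 ± 0.14 in arsenite mice, 6.88 ± 0.26 in saline mice), and Atp2b1, a calcium pump of the cell surface (8.83 ± 0.18 and 8.30 ± 0.20). Slf2, a factor of the SMC5 and SMC6 complex, and Adgrl2, an adhesion receptor, differed by 0.52 and 0.57 with 1 saline mouse inside the arsenite range each. Txnl4b, Fam217b, Lonrf3 and Ankrd63 differed by 0.54, 0.58, 0.81 and 0.81. Ifit1bl2, of an interferon-induced family, was at 5.65, 5.98 and 5.65 in arsenite mice A, C and F and 4.82 in arsenite B, which lay within the saline range of 4.45 to 5.16.

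On the lower side, Pigp had the smallest p. It encodes a subunit of the enzyme that starts glycosylphosphatidylinositol anchors. Pigp was at 8.50, 8.78, 8.54 and 8.78 in arsenite mice and 9.35, 9.14, 9.05, 9.28 and 9.10 in saline mice. The groups were apart, with a difference of -0.54 ± 0.10 (p = 2.07e-05, adjusted p = 0.3, exact p = 0.0159). Prune2 had the largest difference of the 12, at 4.37, 4.21, 4.79 and 4.55 in arsenite mice and 6.46, 5.53, 5.22, 6.60 and 6.21 in saline mice (-1.52 ± 0.36, p = 0.000451, exact p = 0.0159). All arsenite mice lay below log2 5, where probe sets of this array are dim, and uninjected mice averaged 5.09 ± 0.37. Cox20 and Cmc1, which help to assemble cytochrome c oxidase of the respiratory chain, had differences of -0.51 and -0.58. Cox20 averaged 8.89 ± 0.12 in arsenite mice and 9.40 ± 0.18 in saline mice, with no overlap, while Cmc1 overlapped in 1 saline mouse. Slc25a35, of the mitochondrial carrier family, had a difference of -0.65, and Gstm7, a glutathione transferase, -0.75. Mrgprf, an orphan receptor, averaged 5.07 ± 0.14 in arsenite mice and 5.91 ± 0.35 in saline mice. The rest were Dmkn (-0.71), Spata17 (-0.63), the noncoding 1110038B12Rik (-0.59), and Dhcr7 and Nsdhl, which belong to cholesterol synthesis and are described with it. A further probe set of Slf2, Adgrl2, Gstm7, Prune2, Cox20, Cmc1 and Spata17 had a difference of the other sign.

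**Figure D1:**
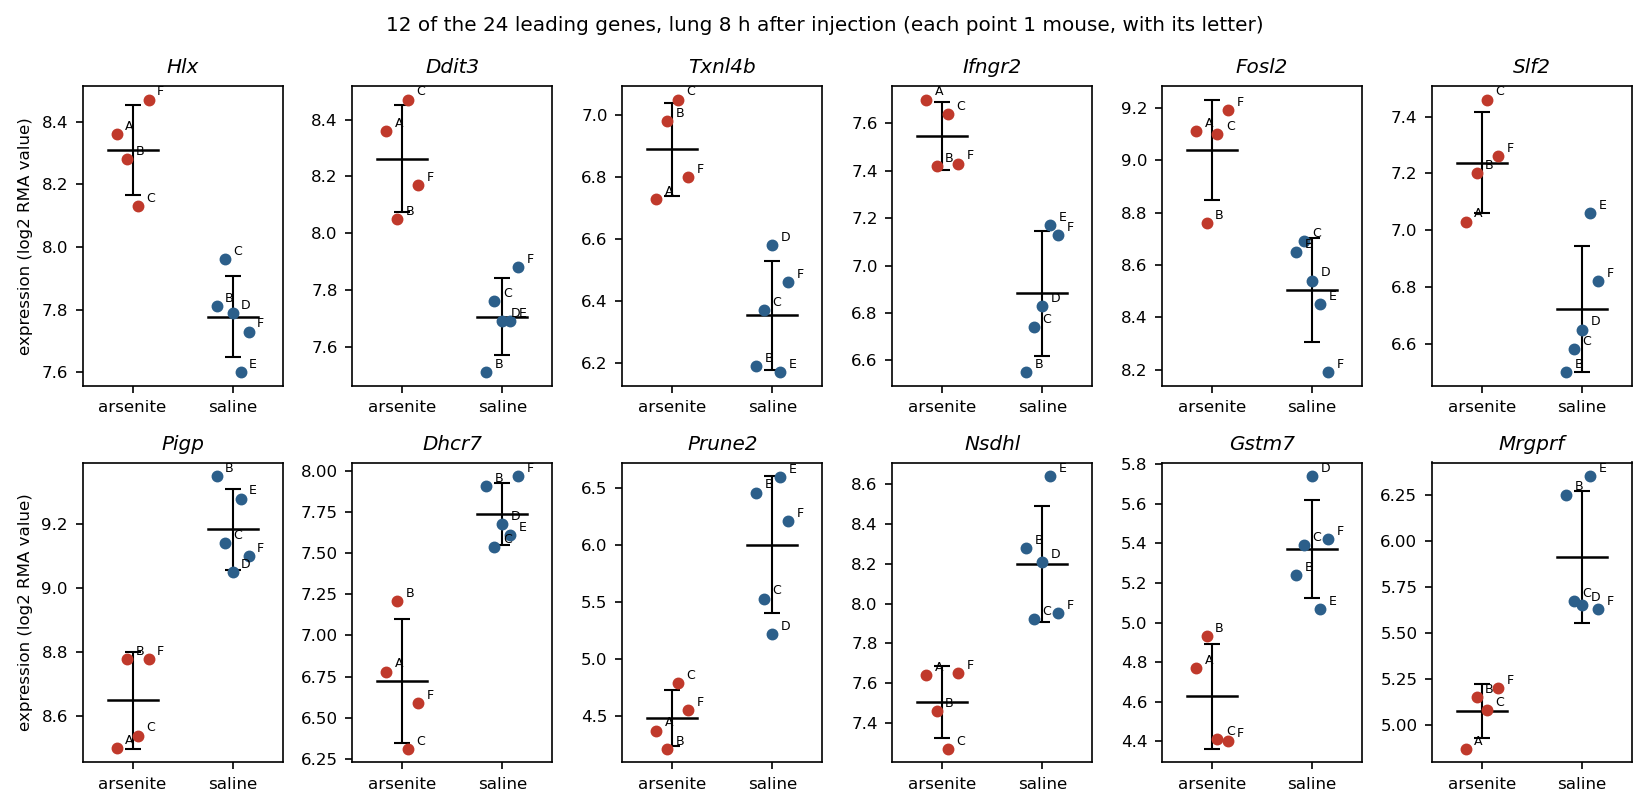
Log2 RMA value (vertical axis) of 12 of the 24 leading genes, in arsenite mice (red, left) and saline mice (blue, right); points are mice with their letters, lines and bars are means and SDs. Of the genes drawn, Slf2 alone has groups that overlap, where saline E lies at 7.06 and arsenite A at 7.03.

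Heat shock proteins and their cochaperones had the most members higher at an unadjusted p under 0.05 of all lists followed. These proteins hold unfolded proteins and help them refold. Of 22 measured genes, 19 had a positive difference and 13 were higher at an unadjusted p under 0.05, with 0 lower. The share over all genes was 4.81%. The median difference of the list was 0.386, against 0.009 over all genes. Only Bag3, a cochaperone of HSP70, had groups that did not overlap, at 9.19, 9.10, 9.00 and 9.02 in arsenite mice and 8.71, 8.79, 8.93, 8.22 and 8.80 in saline mice (0.39 ± 0.15, p = 0.0183, adjusted p = 0.68, exact p = 0.0159).

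Hspa1b, an inducible HSP70, had the widest difference of the list and is named for that after its values were seen. It was at 11.36, 9.19, 10.99 and 9.72 in arsenite mice and 7.84, 8.80, 9.49, 8.21 and 9.42 in saline mice. Arsenite A and C stood above all saline mice by more than 1, and arsenite B lay inside the saline range. The difference was 1.57 ± 0.55 (p = 0.0107, adjusted p = 0.65, exact p = 0.0635). Hspa1a, the neighbouring copy, was at 10.15, 7.44, 8.04 and 7.77 in arsenite mice and 6.81, 7.28, 7.97, 6.48 and 7.93 in saline mice, a difference of 1.06 ± 0.57 (p = 0.0785, exact p = 0.159). Here arsenite A alone was far above the saline mice. These genes are near-identical copies, so their probe sets may share signal.

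The next 4 had the smallest p of the list. Hsp90aa1, the inducible HSP90, was at 11.86, 11.24, 12.31 and 11.91 in arsenite mice and 10.83, 11.19, 11.55, 11.24 and 11.28 in saline mice (0.61 ± 0.20, p = 0.00598, exact p = 0.0635). Dnaja1, a DNAJ partner of HSP70, was at 11.62, 10.59, 11.43 and 11.35 in arsenite mice and 10.31, 10.83, 10.84, 10.57 and 10.35 in saline mice (0.67 ± 0.23, p = 0.00845, exact p = 0.0476). In both genes arsenite A, C and F exceeded every saline mouse and arsenite B did not. Chordc1 and Ahsa1, cochaperones of HSP90, differed by 0.62 ± 0.20 and 0.38 ± 0.13 with the same mouse lowest. The mean level of the list was 9.96, 9.28, 10.03 and 9.71 in arsenite mice and 9.14, 9.43, 9.53, 9.08 and 9.38 in saline mice, so arsenite B was again within the saline range. The count of 13 was 15 without arsenite B, 7 without arsenite A, and 8 without arsenite C, saline B or saline E. It was 8 with the 9 mice fitted alone, 3 by the rank product and 0 with the array of arsenite E included. Within the pair of arsenite A and saline D, whose raw files share a name prefix, 18 of 22 differences were positive (median 0.241), and among arsenite C, arsenite F and saline E, which share another, 20 of 22 (median 0.739). Neutrophil markers had means of 8.57, 7.11, 8.91 and 8.32 in these arsenite mice and 6.97, 8.61, 7.57, 7.19 and 8.67 in saline mice, so that arsenite B was the lowest arsenite mouse and saline B and E the lowest saline mice for both lists. Their part in the heat shock genes was not tested.

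The binding sites of HSF1 are repeats of a short motif. The sequences before the start of Hspa1b and Hspa1a are shown because these genes had the widest differences of the list. They are the 250 bases upstream, from RefSeq on the mouse build GRCm38.p6, minus strand, at chr17:34959239-34959488 for Hspa1b and chr17:34972157-34972406 for Hspa1a. Capitals mark matches to GAANNTTC, a pair of facing heat shock units that reads the same on both strands.
Hspa1b: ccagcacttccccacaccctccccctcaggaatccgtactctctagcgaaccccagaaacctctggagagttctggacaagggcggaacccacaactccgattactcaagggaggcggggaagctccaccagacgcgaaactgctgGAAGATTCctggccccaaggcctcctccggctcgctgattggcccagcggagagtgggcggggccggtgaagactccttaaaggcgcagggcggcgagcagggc
Hspa1a: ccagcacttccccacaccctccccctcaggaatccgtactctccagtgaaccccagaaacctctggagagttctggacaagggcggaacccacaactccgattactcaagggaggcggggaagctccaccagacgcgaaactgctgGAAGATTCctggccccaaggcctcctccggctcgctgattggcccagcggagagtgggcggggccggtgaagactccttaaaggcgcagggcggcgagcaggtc
Both hold 1 match, 104 bases before the start, and the sequences are the same at 247 of 250 positions (98.8%). In windows from 250 bases before to 50 after the start, GAANNTTC occurred in 12 of the 19 list members found in the table, Bag3, Chordc1 and Dnaja1 among them, and in 9.04% of all 27025 genes. A match describes letters and does not show binding.

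Under dexamethasone the same genes did not have this pattern. In dexamethasone and arsenite mice against dexamethasone mice, 2 of the 22 differences were positive, 0 genes were higher at an unadjusted p under 0.05 and 1 was lower, where 1.15% and 1.28% of all genes were. The median difference was -0.19. Hspa1b was at 7.85, 7.95, 9.64, 8.92 and 9.93 in dexamethasone and arsenite mice and 9.58, 9.55, 10.92, 11.46 and 9.23 in dexamethasone mice (-1.29 ± 0.52). Of the 5 dexamethasone mice, 4 lay above all saline mice. The difference between the arsenite effects with and without dexamethasone was tested as an interaction. It was past an unadjusted p of 0.05 for 15 of the 22 genes (all genes, 4.44%), for Hspa1b with -2.86 (adjusted p = 0.999). No probe set was past an adjusted p of 0.05 in that test (0%), and its lowest adjusted p was 0.379. The count of 15 lay between 10, without arsenite C, and 16, without arsenite B. Single mice were left out only among the arsenite and saline mice. How the count depends on single mice of the dexamethasone groups was not tested.

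**Figure D2:**
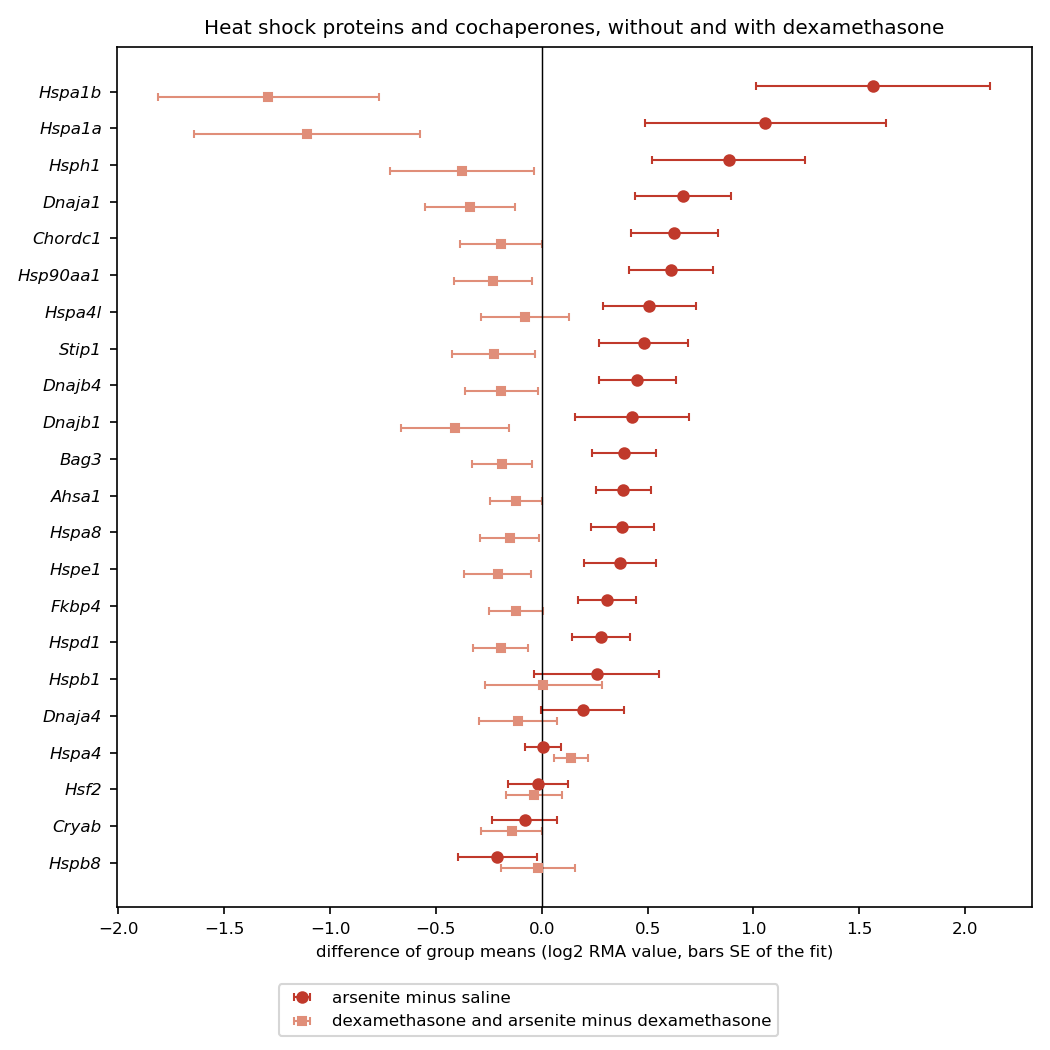
Difference of group means on the log2 scale (horizontal axis) for 22 heat shock proteins and cochaperones, arsenite minus saline (circles) and dexamethasone and arsenite minus dexamethasone (squares); bars are the SE of the model. Circles lie right of 0 for 19 genes and squares for 2.

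Cirbp was named after its values were seen. It encodes a cold-inducible RNA-binding protein whose level is known to be higher in cooled and lower in heated cells. Cirbp was at 5.31, 7.66, 5.20 and 5.29 in arsenite mice and 7.50, 6.57, 7.17, 7.28 and 7.24 in saline mice. Arsenite A, C and F were below every saline mouse by more than 1, and arsenite B was above them all. The difference was -1.29 ± 0.41 (p = 0.00556, adjusted p = 0.641, exact p = 0.0952), and -1.89 without arsenite B, where it passed (adjusted p = 0.0407). In the other groups Cirbp was between 6.73 and 8.26 in dexamethasone and arsenite mice, 7.04 and 8.02 in dexamethasone mice, and 6.94 and 7.78 in uninjected mice. The 3 arsenite mice with low Cirbp were also those whose mean of the heat shock list lay above the saline range. Single genes of that list differed from this. Arsenite B was also above all saline mice for Bag3, and arsenite F lay inside the saline range for Hspa1a.

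Genes of the unfolded protein and integrated stress response were mostly at similar levels. Of 20 measured, 3 were higher at an unadjusted p under 0.05 and 0 lower (all genes, 4.81% and 3.57%). The median difference was 0.044. Beside Ddit3 these were Trib3, a target of CHOP, and Hspa5, the chaperone BiP of the endoplasmic reticulum. Trib3 was at 5.57, 5.91, 5.42 and 5.54 in arsenite mice and 5.24, 5.08, 5.32, 5.32 and 5.13 in saline mice, without overlap (0.39 ± 0.13, p = 0.00838, exact p = 0.0159), though a further probe set of Trib3 had a difference of -0.05. Hspa5 averaged 12.19 ± 0.22 in arsenite mice and 11.88 ± 0.22 in saline mice (p = 0.0485, exact p = 0.0794). Of these 3 genes, the interaction with dexamethasone was past an unadjusted p of 0.05 for Ddit3 alone (-0.68, adjusted p = 0.999).

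Immediate early genes, which cells switch on within minutes of a stimulus, were 12 higher and 13 lower in sign, with 3 of 25 past an unadjusted p of 0.05. These were Fosl2, Klf6 and Ier5. Klf6, a zinc finger factor, was at 9.24, 9.76, 9.42 and 9.83 in arsenite mice and 8.61, 8.50, 9.16, 8.95 and 8.07 in saline mice. No saline mouse reached the arsenite range (0.90 ± 0.26, p = 0.00285, exact p = 0.0159; 0.33 to 0.62 for 4 other probe sets), and the difference with dexamethasone was -0.07. Among 31 proteasome subunits, 4 were higher and 0 lower at an unadjusted p under 0.05 (median 0.103), against 4.81% and 3.57% of all genes. With the array batch as a block 1 was higher and the median was -0.005, without arsenite B 1 was, and without saline E 7 were. The smallest p belonged to Psmd2 of the regulatory particle, at 9.90, 10.23, 9.96 and 9.86 in arsenite mice and 9.43, 9.34, 9.74, 9.77 and 9.30 in saline mice (0.47 ± 0.14, p = 0.00363, exact p = 0.0159), and its other probe set differed by 0.042. Of 19 p53 and GADD45 genes, Gadd45a alone was past the threshold (0.37 ± 0.17, p = 0.0448, exact p = 0.0159).

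Metallothioneins, small proteins that bind metals through cysteines, had lower values in arsenite mice. Mt1 was at 9.26, 9.74, 9.52 and 9.61 in arsenite mice and 11.15, 11.15, 9.91, 10.06 and 10.56 in saline mice. Mt2 was at 7.73, 7.79, 7.99 and 8.04 in arsenite mice and 9.43, 9.63, 8.13, 8.80 and 8.66 in saline mice. Neither gene overlapped between the groups, and saline B and C were the highest for both. The raw files of saline B and C share a name prefix that no arsenite mouse has. For these mice batch and treatment cannot be told apart. In the shared batches arsenite A was below saline D, and arsenite C and F were below saline E, for both genes. The differences were -1.03 ± 0.46 for Mt1 (p = 0.0362, adjusted p = 0.715) and -1.04 ± 0.51 for Mt2 (p = 0.0563, adjusted p = 0.747), each with an exact p of 0.0159. Uninjected mice averaged 9.94 ± 0.62 and 8.13 ± 0.45. With dexamethasone the differences were -0.12 and -0.001.

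Metallothionein genes carry sites of the zinc sensor MTF1 and are also induced by glucocorticoids. The 250 bases upstream of both genes are shown for that reason, from RefSeq on GRCm38.p6, plus strand, at chr8:94178839-94179088 for Mt1 and chr8:94172368-94172617 for Mt2. Capitals mark matches to the metal response core, TGCACNC or TGCGCNC, on either strand.
Mt1: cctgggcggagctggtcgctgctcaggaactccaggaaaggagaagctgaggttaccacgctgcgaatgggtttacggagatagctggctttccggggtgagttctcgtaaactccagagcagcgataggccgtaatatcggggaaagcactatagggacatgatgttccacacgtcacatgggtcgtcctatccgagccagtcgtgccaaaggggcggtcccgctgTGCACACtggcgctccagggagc
Mt2: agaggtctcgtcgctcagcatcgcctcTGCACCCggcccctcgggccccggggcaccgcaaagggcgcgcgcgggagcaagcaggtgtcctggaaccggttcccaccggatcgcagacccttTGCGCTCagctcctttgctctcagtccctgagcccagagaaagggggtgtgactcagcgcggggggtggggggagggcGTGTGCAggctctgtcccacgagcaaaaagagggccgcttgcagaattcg
Mt1 holds 1 match, 23 bases before the start, and Mt2 holds 3, at 223, 128 and 50 bases before it. In windows that run 50 bases further, Mt1 holds 3 matches and Mt2 holds 4. In such windows the core occurred in 8 of the 12 metallothionein and zinc genes found in the table and in 28.2% of all genes.

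The other metallothionein and zinc genes had smaller differences. Of 14 measured, 5 were higher at an unadjusted p under 0.05 and 1, Mt1, was lower (all genes, 4.81% and 3.57%). Slc30a4, a zinc transporter, was at 8.18, 7.99, 8.04 and 8.04 in arsenite mice and 7.50, 7.52, 7.79, 8.02 and 7.45 in saline mice (0.41 ± 0.14, p = 0.0096, exact p = 0.0318), with saline E inside the arsenite range. Mtf1, the gene of the sensor itself, and the zinc exporter Slc30a1 had differences of 0.36 and 0.24 (exact p = 0.0476 and 0.0635).

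NRF2 target genes, which serve glutathione synthesis and detoxification, had a median difference of 0.025, with 16 of 30 positive. At an unadjusted p under 0.05, 3 were higher and 0 lower (all genes, 4.81% and 3.57%). Hmox1, heme oxygenase, was at 6.67, 6.38, 7.04 and 6.68 in arsenite mice and 6.07, 6.50, 5.87, 6.31 and 6.88 in saline mice. Its groups overlapped, and the difference of 0.36 ± 0.23 did not pass (p = 0.134, exact p = 0.159). Without saline F the difference was 0.50 and its unadjusted p fell under 0.05. Nqo1 differed by 0.02 ± 0.19, Gclm of glutathione synthesis by -0.06 ± 0.15, and Txnrd1, thioredoxin reductase, by 0.04 ± 0.09, while a further Txnrd1 probe set had a difference of -0.53. The smallest p was that of Gsta3, a glutathione transferase (10.09 ± 0.19 in arsenite mice, 9.64 ± 0.26 in saline mice, p = 0.022, exact p = 0.0318). Of 15 genes of arsenic uptake, methylation and export, 2 were higher and 1 lower at an unadjusted p under 0.05. Aqp9, a channel that takes up arsenite in liver, was at 5.23, 4.63, 6.50 and 5.52 in arsenite mice and between 4.37 and 5.10 in saline mice (0.72 ± 0.25, p = 0.00909, exact p = 0.0952), with 0.067 for its other probe set. As3mt, the arsenic methyltransferase, differed by 0.22 ± 0.21 (p = 0.311, exact p = 0.191). Of 16 hypoxia-inducible genes 2 were higher and 2 lower at that threshold, P4ha1, a collagen prolyl hydroxylase, with the smallest p (0.72 ± 0.24, p = 0.00752, exact p = 0.0635).

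Glucocorticoid target genes were lower in arsenite mice in sign, and the difference rested on part of the saline mice. Of 25 measured, 20 had a negative difference, and 5 were lower and 0 higher at an unadjusted p under 0.05 (all genes, 3.57% lower). The median was -0.462. The mean level of the list was 8.98, 8.69, 9.10 and 9.04 in arsenite mice and 9.93, 9.92, 9.04, 9.02 and 9.02 in saline mice. Saline B and C were thus high, and saline D, E and F were level with the arsenite mice. Zbtb16, a transcription factor strongly induced by glucocorticoids, was at 7.22, 6.54, 8.60 and 6.88 in arsenite mice and 9.88, 10.10, 7.80, 7.61 and 9.34 in saline mice (-1.64 ± 0.62, p = 0.0162, exact p = 0.0794). Fkbp5, a cochaperone of the receptor, was at 7.88, 7.18, 8.62 and 7.28 in arsenite mice and 9.65, 10.04, 7.70, 8.38 and 8.41 in saline mice (-1.10 ± 0.55, p = 0.0588, exact p = 0.111). Both genes overlapped between the groups. Pdk4 differed by -1.29 ± 0.54, Sult1a1 by -0.66 ± 0.23, Glul, with groups apart, by -0.41 ± 0.17, and Arrdc2 by -0.78. Tsc22d3 and Per1 had differences of -0.17 (exact p = 0.587) and -0.46 (exact p = 0.222).

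The raw files of saline B and C share a name prefix that no arsenite mouse has, so for these mice that batch and the treatment cannot be told apart. With the batch as a block, 1 gene was lower and the median difference was 0.051. Within batches it was -0.138 for arsenite A against saline D, and 0.213 for arsenite C and F against saline E. The count of 5 was 2 without saline B, saline C, arsenite B or arsenite F. It was 9 without saline D or E and 12 without both, a setting chosen after seeing the data, 10 with the replicate letter as a block, 11 with array weights and 8 by the rank product. With dexamethasone in both groups, 21 of 25 differences were positive (median 0.225) and 1, Arrdc2, was past an unadjusted p of 0.05. The list mean was 10.54, 9.36, 8.95, 9.99 and 8.98 in dexamethasone and arsenite mice A, C, D, E and F. In dexamethasone mice it was 8.96 to 9.67, below saline B and C. Only A and E of the former group lay above all dexamethasone mice, and no fit was made without them.

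Of 19 clock genes measured, 3 were higher and 2 lower at an unadjusted p under 0.05 (all genes, 4.81% and 3.57%). Groups did not overlap for 4 (all genes, 2.47% higher and 0.835% lower). Arntl and Npas2, activators of the daily clock, were higher, and Nr1d1, a repressor that oscillates against them, was lower. Arntl was at 7.93, 7.30, 7.59 and 7.53 in arsenite mice and 6.92, 6.90, 7.12, 7.27 and 7.27 in saline mice (0.50 ± 0.15, p = 0.00353, exact p = 0.0159). Nr1d1 was at 6.01, 7.06, 6.32 and 6.68 in arsenite mice and 8.27, 8.26, 7.34, 7.10 and 7.78 in saline mice (-1.23 ± 0.39, p = 0.0054, exact p = 0.0159). Both genes had groups that did not overlap, although arsenite B and saline E were close for Nr1d1. For saline B and C, which had the highest Nr1d1 and the lowest Arntl, batch and treatment cannot be told apart. In the shared batches arsenite mice were also above saline mice for Arntl and below them for Nr1d1. The median difference of the list was -0.169, and -0.003 with the batch as a block. Within batches it was -0.306 for arsenite A against saline D, and 0.259 for arsenite C and F against saline E. Npas2 averaged 5.67 ± 0.24 in arsenite mice and 4.85 ± 0.41 in saline mice (p = 0.00256, exact p = 0.0159), also without overlap, while the other probe sets of Npas2 and Arntl differed by 0.005 and 0.07. Hlf, an output factor of the clock, had a difference of -0.64 (p = 0.0109, exact p = 0.0159). Cry1, a repressor of the clock, differed by 0.69 ± 0.21. With dexamethasone in both groups the differences were 0.31 ± 0.14 for Arntl, 0.52 ± 0.22 for Npas2 and -0.70 ± 0.37 for Nr1d1, and 0 of the 19 interactions were past an unadjusted p of 0.05. The hour at which each mouse was killed is not given in the sources used here, so the part of time of day in these differences was not tested.

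**Figure D3:**
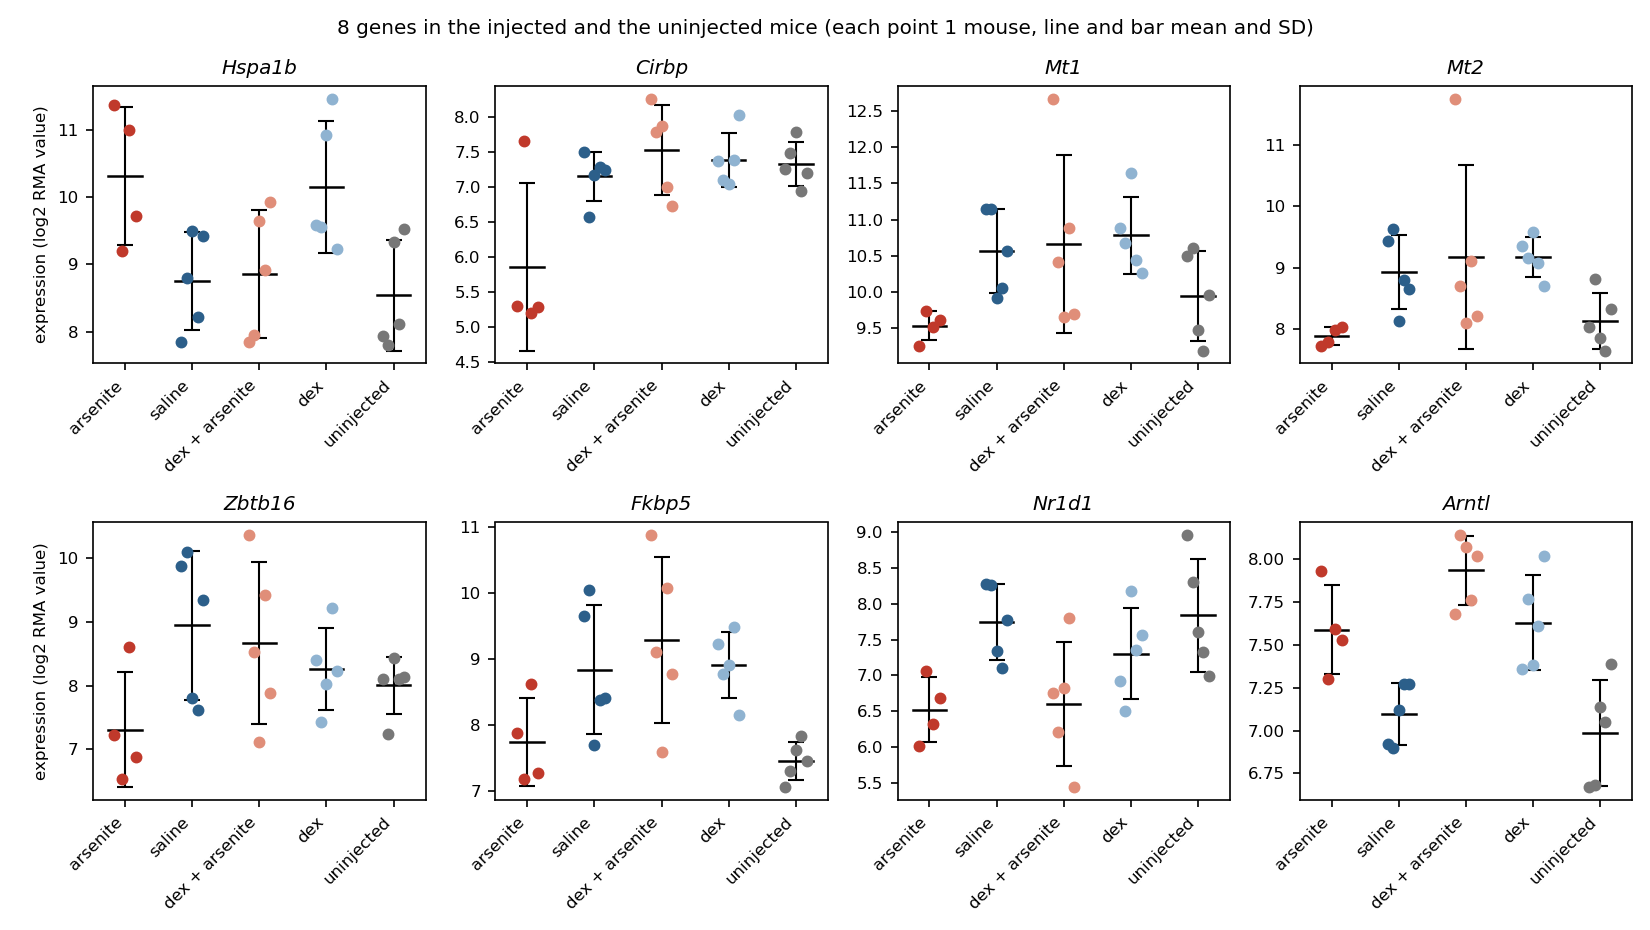
Log2 RMA value (vertical axis) of 8 genes in arsenite, saline, dexamethasone and arsenite (dex + arsenite), dexamethasone (dex) and uninjected mice, left to right; points are mice, lines and bars means and SDs. Cirbp shows 3 arsenite mice at 5.20 to 5.31 and all other mice at 6.57 or more, and Mt1 shows the arsenite mice below all saline mice.

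Genes of cholesterol synthesis had mostly negative differences, of which a part passed the unadjusted threshold. Of 18 measured, 17 had a negative difference, 6 were lower and 0 higher at an unadjusted p under 0.05 (all genes, 3.57% lower), and 5 had groups that did not overlap (all genes, 0.835%). The median difference was -0.332. Dhcr7, which makes cholesterol from its last precursor, was at 6.78, 7.21, 6.31 and 6.59 in arsenite mice and 7.91, 7.54, 7.68, 7.61 and 7.97 in saline mice. Every arsenite mouse was below every saline mouse, arsenite C the lowest (-1.02 ± 0.23, p = 0.000319, adjusted p = 0.521, exact p = 0.0159). Nsdhl, a sterol dehydrogenase, was at 7.64, 7.46, 7.27 and 7.65 in arsenite mice and 8.28, 7.92, 8.21, 8.64 and 7.95 in saline mice, again apart (-0.69 ± 0.17, p = 0.000716, exact p = 0.0159). Lss, which closes the sterol rings, was at 6.35, 6.38, 5.84 and 6.07 in arsenite mice and 6.76, 6.69, 6.61, 6.63 and 6.65 in saline mice (-0.51 ± 0.17, p = 0.00774, exact p = 0.0159). Sqle, which oxidises squalene, was at 7.77, 8.23, 7.63 and 7.74 in arsenite mice and 8.39, 8.27, 8.70, 8.05 and 8.41 in saline mice (-0.52 ± 0.15, p = 0.00213, exact p = 0.0318). Arsenite B overlapped the saline mice for Sqle and was the highest arsenite mouse for Dhcr7 and Lss. The count of 6 lay between 4, without arsenite C, and 8 in the limma alternatives, and was 2 by the rank product. The median was -0.22 without arsenite C, and without saline D and E, the lungs with the highest fat markers and the highest means of the list (8.07 each), it was -0.196 with 5 of 18 differences positive. In the shared batches the median was -0.388 (arsenite A against saline D) and -0.526 (arsenite C and F against saline E). With dexamethasone in both groups the median was -0.138, with 2 genes lower and 1 interaction, that of Dhcr7, past an unadjusted p of 0.05 (0.88, adjusted p = 0.999).

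Fatty acid genes and fat markers had lower values in arsenite mice, and 2 saline lungs had high fat markers. Of 26 genes of fatty acid synthesis and oxidation, 25 had a negative difference (median -0.278). At an unadjusted p under 0.05, 5 were lower, against 3.57% of all genes. Fabp4, a fatty acid carrier of fat cells and alveolar macrophages, was at 8.11, 9.88, 8.09 and 7.10 in arsenite mice and 9.95, 8.60, 11.95, 13.02 and 8.64 in saline mice (-2.13 ± 0.89, p = 0.0267, exact p = 0.0794). Adipoq, the fat hormone adiponectin, was at 4.57, 8.24, 5.89 and 3.97 in arsenite mice and 8.75, 6.32, 10.05, 12.52 and 6.10 in saline mice (-3.08 ± 1.22, p = 0.0205, exact p = 0.0794). Saline D and E were the highest mice for both genes. Acly, which makes acetyl-CoA for lipid synthesis, and Pparg, the regulator of fat cells, had differences of -0.61 and -0.50 (exact p = 0.0635 and 0.111), with saline E highest. All 8 fat markers were negative and 4 were past an unadjusted p of 0.05 (median -1.839). Without saline E, or without saline D and E, 0 were, with medians of -1.118 and -0.402. The count was also 0 without arsenite A, 1 without arsenite F or with the replicate letter as a block, 2 without saline D and 7 without saline F. For the fatty acid list the count of 5 was 1 without saline E, arsenite A or arsenite F, 3 without arsenite C, 10 without saline C and 11 without saline F. Fat marker means were 4.99 to 5.82 in dexamethasone and arsenite mice. In dexamethasone mice A, B, C, E and F they were 8.40, 7.94, 8.81, 6.03 and 5.43. Dexamethasone A, B and C thus had high fat markers, and F lay within the range of the other group. Between these groups 7 of 8 markers were lower at an unadjusted p under 0.05, against 1.28% of all genes. How much of the lipid gene differences came with fat tissue was not tested.

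Among genes of IL-1 and Toll-like receptor signaling, cytokines and chemokines, few members were past an unadjusted p of 0.05. In the IL-1 and Toll-like receptor list, 25 of 33 differences were positive (median 0.089). At an unadjusted p under 0.05, 2 genes were higher, against 4.81% of all genes. Without arsenite C 16 were positive, 0 were higher and the median was -0.01. Relb, an NF-kappaB subunit, averaged 6.60 ± 0.27 in arsenite mice and 6.25 ± 0.16 in saline mice (p = 0.012, exact p = 0.0476). Il1b was at 10.19, 8.03, 10.69 and 11.11 in arsenite mice and 9.80, 9.86, 8.57, 8.51 and 10.13 in saline mice, and Tnf averaged 4.35 ± 0.23 and 4.42 ± 0.25. Neither was past the threshold (exact p = 0.365 and 0.635), and arsenite B had the lowest Il1b of all 9 mice. The Il1b difference of 0.63 ± 0.62 lay between 0.262, without arsenite F, and 1.288, without arsenite B, where its unadjusted p fell under 0.05. Il1rn, the IL-1 receptor antagonist, was the only cytokine of 21 past it, at 6.73, 6.29, 7.57 and 7.24 in arsenite mice and 6.62, 6.22, 5.59, 5.86 and 6.65 in saline mice (0.77 ± 0.29, p = 0.0156, exact p = 0.0635). Of 27 chemokines 1 was higher and 3 lower. Cxcl13, which attracts B cells, was at 6.12 to 6.34 in arsenite mice and 6.64 to 7.91 in saline B, C, D and F, with 11.10 in saline E (-1.64 ± 0.71, p = 0.0314, exact p = 0.0159). Ccl8 and Cxcl9 had differences of -0.83 and -0.80, also with saline E highest.

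Interferon-stimulated genes were 19 of 22 positive (median 0.206). At an unadjusted p under 0.05, 4 were higher and 0 lower (all genes, 4.81% and 3.57%). The median was 0.12 without arsenite C and 0.116 without saline D, with 16 positive each, and the count of 4 was 1 without arsenite A and 2 without arsenite C or saline C, D or E. Ifit3, which restrains viral replication, was at 9.47, 9.35, 9.48 and 9.63 in arsenite mice and 9.03, 8.61, 8.88, 8.80 and 9.38 in saline mice (0.54 ± 0.20, p = 0.012, exact p = 0.0318), with saline F inside the arsenite range. Bst2, the surface protein tetherin, was at 9.30 to 9.36 in arsenite mice and 8.68 to 9.15 in saline mice (p = 0.0458, exact p = 0.0159). In the dexamethasone groups the median of the list was 0.041.

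Adhesion and coagulation genes of endothelium were higher in 4 of 16 and lower in 0 at an unadjusted p under 0.05 (median 0.259). Over all genes these shares were 4.81% and 3.57%. Icam1, the receptor by which leukocytes attach, was at 11.35, 11.19, 11.28 and 11.24 in arsenite mice and 11.02, 10.86, 10.85, 10.55 and 11.06 in saline mice (0.40 ± 0.12, p = 0.00287, exact p = 0.0159). Pecam1, of the junctions between endothelial cells, was at 10.85, 10.31, 10.39 and 10.46 in arsenite mice and 10.13, 10.24, 9.94, 10.01 and 10.12 in saline mice (0.42 ± 0.14, p = 0.00774, exact p = 0.0159). Both genes were apart between the groups, and in uninjected mice they averaged 11.21 ± 0.18 and 10.42 ± 0.27, nearer to the arsenite mice. Icam2 and Vcam1 differed by 0.34 and 0.49 with overlap, and other probe sets of Vcam1 by 0.306 and 0.004. General markers of endothelial cells were similar, 3 of 14 higher with a median of 0.263, among them the tight junction gene Cldn5 (11.84 ± 0.24 in arsenite mice, 11.38 ± 0.20 in saline mice, p = 0.00119, exact p = 0.0159). Pecam1 belongs to both lists and is counted in each, so the lists are not separate measurements. The mean of the endothelial markers was 10.14 to 10.49 in arsenite mice and 9.72 to 10.25 in saline mice. Its part in the adhesion and coagulation genes was not tested.

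Among other cell types, alveolar type I markers had 12 of 12 positive differences with 2 past an unadjusted p of 0.05, Rtkn2 (0.47 ± 0.16, p = 0.00715, exact p = 0.0159) and Igfbp2 (0.67 ± 0.24, p = 0.0122, exact p = 0.0159), and a median of 0.108. Without saline E, 8 of 12 were positive with a median of 0.062, and without saline D and E 7 of 12 with 0.032. Alveolar type II markers had a median of -0.05 and 0 past the threshold. Of all genes, 4.81% were higher and 3.57% lower at that threshold. Neutrophil markers were 11 of 12 positive with 0 past it and a median of 0.459, above that of the heat shock list, and both groups held mice with high and with low means. That median was 0.106 without arsenite A, 0.171 without arsenite C, 1.089 without arsenite B and 0.025 without saline D and E. Platelet markers were 8 of 9 positive with 0 past it and a median of 0.517, with saline F the highest mean at 10.05 and saline B the lowest at 6.80. Without saline B the median was 0.215, and without saline F 1.075. Smooth muscle markers were negative in 10 of 10 with 0 past the threshold (median -0.215), and mesothelium markers in 8 of 8 with 2 (median -0.433). Without saline D, 3 of 10 smooth muscle differences were positive (median -0.064). The smooth muscle median was -1.13 for arsenite A against saline D, and 0.156 for arsenite C and F against saline E, with 6 positive. The mesothelium median was 0.029 and -0.866 in these batches, with 4 and 0 positive. Acute phase genes were negative in 17 of 18 with 0 past the threshold (median -0.29). Without saline D 8 of 18 were positive with a median of -0.095, and without arsenite A the median was -0.759. Their mean was highest in arsenite A (8.22) and saline D (8.97) against 6.50 to 7.10 in the other 7 mice.

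**Figure D4:**
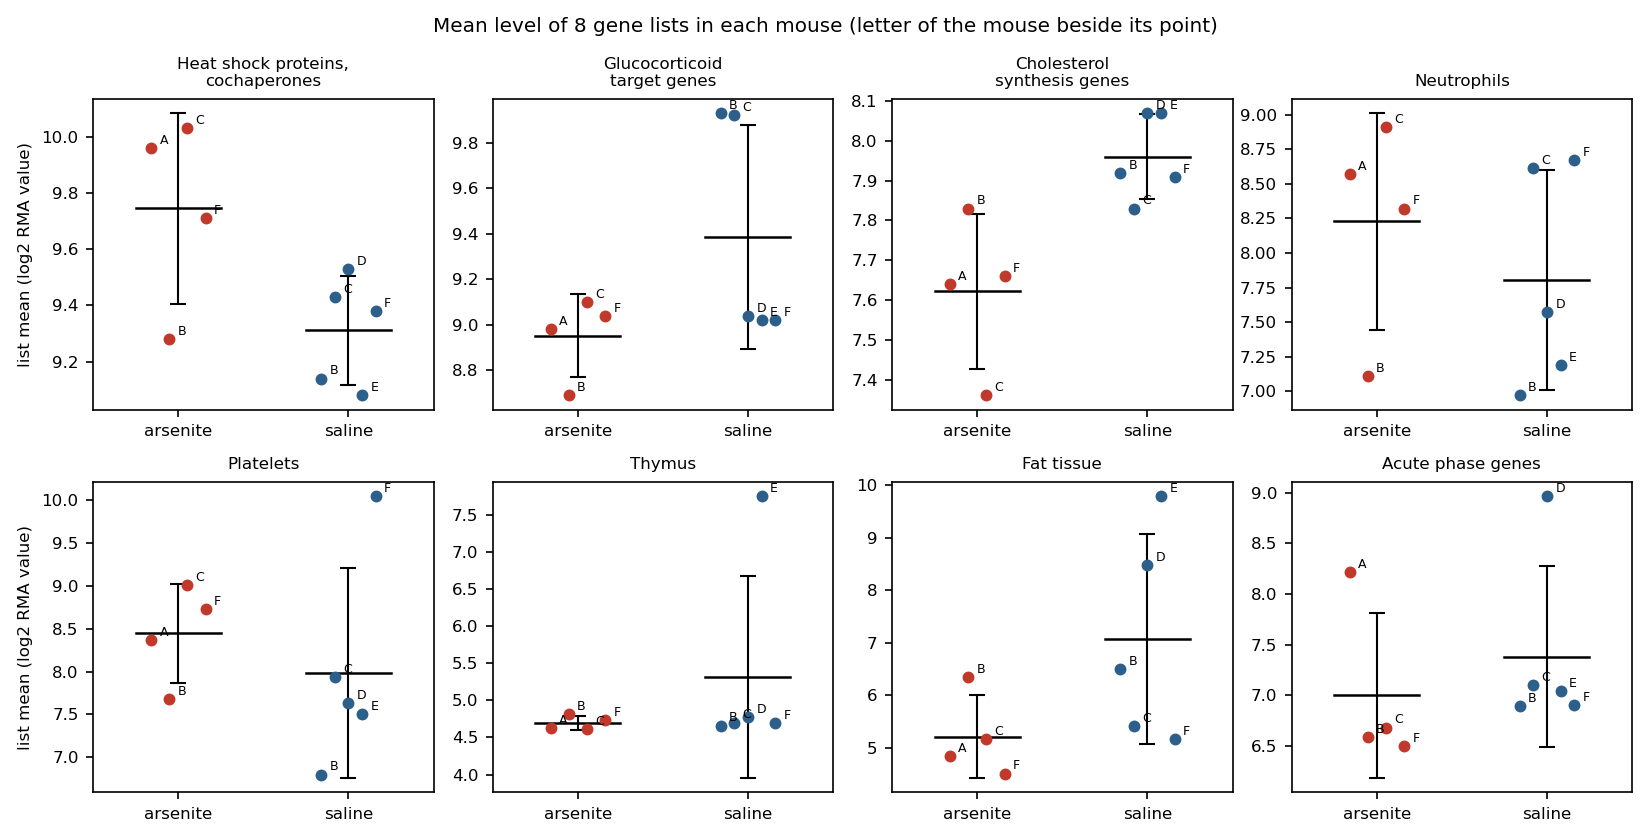
Mean log2 RMA value of 8 gene lists (vertical axis) in arsenite mice (red, left) and saline mice (blue, right), with the letter of each mouse; lines and bars are means and SDs. Heat shock means of arsenite A, C and F (9.71 to 10.03) lie above all saline mice, glucocorticoid target means are high in saline B and C, and fat and thymus means in saline E.

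**Figure D5:**
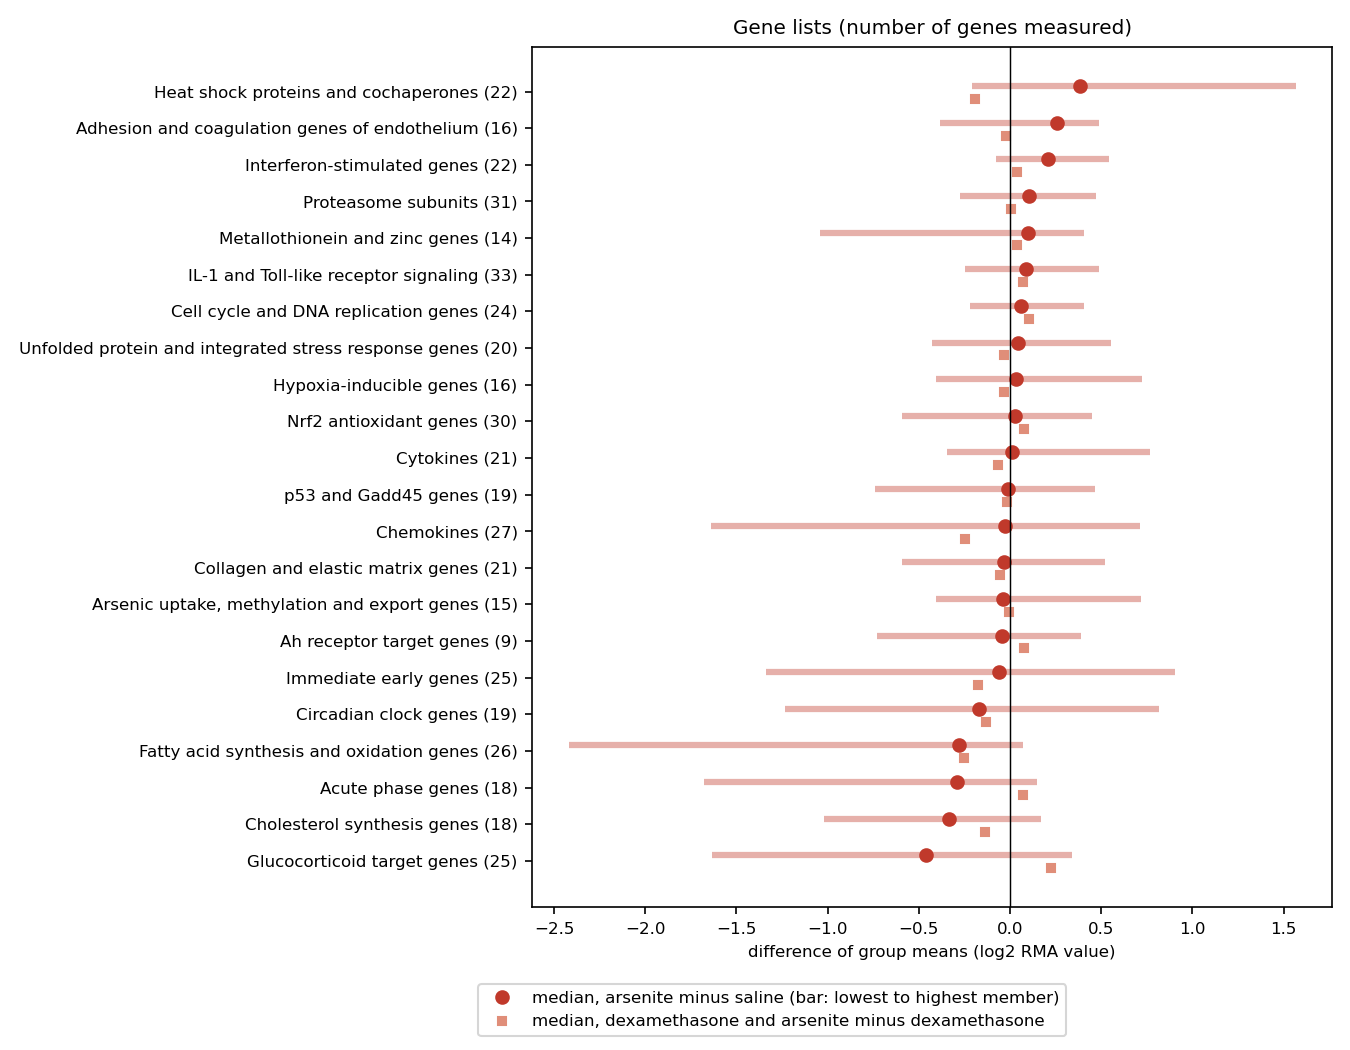
Median difference on the log2 scale (horizontal axis) of 22 gene lists, arsenite minus saline (circles, with bars from the lowest to the highest member) and dexamethasone and arsenite minus dexamethasone (squares); the number of genes measured is in parentheses. Circle and square lie on opposite sides of 0 for heat shock proteins (0.386 and -0.19) and glucocorticoid target genes (-0.462 and 0.225). They also do for acute phase genes (-0.29 and 0.072) and endothelial adhesion and coagulation genes (0.259 and -0.021). The same holds for the unfolded protein, hypoxia, cytokine and Ah receptor lists, with medians between -0.064 and 0.074.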

How the data were processed

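Lung RNA was hybridised to Affymetrix mouse whole-genome arrays, 1 per mouse. The authors summarised each array by robust multiarray averaging (RMA), and log2 expression was deposited. Its version and the genome build are not given in the sources used here, and raw arrays were not used. Of 45101 probe sets, 64 controls were left out. Of the rest 34945 carry 1 gene symbol, 932 several and 9160 none. A gene is given by its probe set of highest mean among those with 1 symbol (18193 genes). The test was limma (version 3.58.1, under R 4.3.3), with 1 model over 19 injected mice in 4 groups (15 residual degrees of freedom) without covariates, Benjamini-Hochberg over 45037 probe sets, threshold 0.05. Each mean rests on 4 or 5 mice, which limits its precision. Arsenite E was left out for array quality.

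Named were the genes past the adjusted threshold or, since none passed, in each direction the 12 of smallest p with a difference of at least 0.5 and a group mean above log2 5, then up to 4 genes of smallest p per list and 14 stress, glucocorticoid and immune genes whatever their values. Exceptions are stated. The 22 lists of function and 22 of cell markers, and the comparison itself, were chosen with earlier results of these data known. Lists were described by counts and medians, without a set test. Promoters came from RefSeq. Alternatives were the 9 mice alone, arsenite E included, and a block for array batch (name prefix of the raw file) or for replicate letter. Others were weights per array, centring on the median, quantile normalization, a filter on dim probe sets and an intensity trend. Each of the 9 mice was also left out in turn, and other probe sets were read. A further alternative was the rank product that the study's methods name, rewritten in Python 3.11.15 with numpy 2.4.6. The scripts were tested on simulated data. Figures were drawn with matplotlib 3.10.9 from tables made with pandas 2.3.3.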

Additional observations from a re-analysis of the deposited data

Results flagged for a closer look

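Among 252 pairs of a group and a gene or list mean, 12 had 1 mouse far from the others of its group, which is about the 1 in 20 that chance gives, so the values below are given as a description of single mice. Arsenite B stood apart in 3 of these, with Cirbp at 7.66 (the other arsenite mice 5.20 to 5.31), a mean of the cytokine list of 5.48 (5.78 to 5.79) and a mean of the mesothelium markers of 7.34 (7.84 to 7.89).

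Saline E stood apart in 6, with Pparg at 8.08 (other saline mice 6.66 to 7.07), Cxcl13 at 11.1 (6.64 to 7.91), and list means of 6.78 for cell cycle genes (5.81 to 6.09), 7.74 for T cell markers (4.97 to 5.46), 9.31 for plasma cell markers (7.86 to 8.01) and 7.76 for thymus markers (4.66 to 4.77). Its fat markers were also the highest.

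The acute phase list was far higher in 1 mouse of each group, at 8.22 in arsenite A (other arsenite mice 6.50 to 6.68) and 8.97 in saline D (6.89 to 7.10). Relb was at 6.53 in saline B, against 6.12 to 6.21 in the other saline mice.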

How the results depend on the processing

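At an adjusted p under 0.05, 0 probe sets were higher and 0 lower in every limma alternative with all 9 mice. Leaving out 1 of the 9 mice gave 0 to 4 higher, 0 to 1 lower and 0 to 1 for the interaction. Without arsenite B these were Msl1, Ifit1bl2 and 2 probe sets without a single symbol (higher), Cirbp (lower) and Msl1 (interaction), and without saline E, Mfsd4a (lower). The rank product called 64 higher and 253 lower; it assumes equal spread across probe sets. With the replicate letter as a block 0 probe sets were called. Deviations of same-lettered mice correlated at 0.144 (B), -0.025 (C) and 0.186 (F), and those of mice with different letters at -0.318 to 0.371. So few pairs cannot settle whether the letters pair the mice. Of 82 genes followed, 77 kept their sign in every fit without arsenite E. Most of the 82 were picked for a small p in these same data, which made a change of sign unlikely. The count therefore cannot serve as a test of stability. The 5 that changed sign, Nqo1, Gclm, Tsc22d3, Tnf and As3mt, were among the genes named whatever their values. The precision of 4 and 5 mice limits what could be called. The causes of the changes below were not tested.

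With the array of arsenite E included, differences turned to -0.032 (Txnl4b), -0.10 (Ddit3), -0.59 (Atp2b1), -0.26 (Adgrl2), -0.14 (Fosl2), -0.22 (Nqo1), -0.46 (Txnrd1), -0.24 (Il1b), -0.07 (As3mt), -0.45 (Dnaja1), -0.27 (Chordc1), -0.71 (Hsp90aa1), -0.96 (Ahsa1), -1.07 (Hspa5), -0.69 (Gsta3), -0.27 (Psmd2), -0.07 (Relb), -0.41 (Ifit3), -0.53 (Bst2), -0.86 (Icam1), -0.49 (Pecam1), -0.84 (Icam2), -0.23 (Vcam1), -0.93 (Cldn5), -0.56 (Rtkn2) and -0.61 (Igfbp2). Other probe sets had the opposite sign for Slf2 (-0.041), Adgrl2 (-0.10), Gstm7 (0.084), Prune2 (0.083), Cox20 (0.049), Cmc1 (0.20), Spata17 (0.16), Txnrd1 (-0.53 and -0.10), Tsc22d3 (0.24), Fkbp5 (0.14), Hsp90aa1 (-0.10) and Trib3 (-0.052). With the array batch as a block, Nqo1 was at -0.082, Gclm at 0.077, Tsc22d3 at 0.14, Tnf at 0.063 and As3mt at -0.05. Leaving out 1 mouse gave -0.185 to 0.199 for Nqo1 and -0.146 to 0.026 for Gclm.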

Other observations

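Uninjected mice, which were kept longer on the diet, were set beside the injected groups as a description. Over all 18193 genes, the uninjected mean was nearer to the arsenite mean than to the saline mean for 48.8%. For heat shock genes it was nearer to the arsenite mean for 2 of 22, and for cholesterol synthesis genes for 3 of 18. For glucocorticoid target genes it was nearer to the arsenite mean for 19 of 25. Fkbp5 averaged 7.45 ± 0.29 in uninjected mice, 7.74 ± 0.67 in arsenite mice and 8.84 ± 0.97 in saline mice. Npas2 averaged 4.31 ± 0.34 in uninjected mice, below both injected groups.

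Cyp1b1, an oxidase induced through the Ah receptor, had the smallest p of 9 genes of that list (-0.73, p = 0.00743, exact p = 0.0318), and Col14a1, a collagen of fibril surfaces, that of 21 matrix genes (-0.59, p = 0.0115, exact p = 0.0318). Cxcl3, a neutrophil chemokine, was the chemokine that was higher at an unadjusted p under 0.05 (0.28, p = 0.00716, exact p = 0.0159), with all 9 mice below log2 5. Bpifb1, a secretory protein of airway lining, had a difference of -2.13 (p = 0.0381, exact p = 0.143), with secretory cell means of 10.55, 12.14, 11.52 and 10.49 in arsenite mice A, B, C and F and 11.37 to 12.42 in saline mice.

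The lists not described above had few members past an unadjusted p of 0.05, where 4.81% of all genes were higher and 3.57% lower. Of 24 cell cycle genes 17 had a positive difference and 0 passed. In the p53 and GADD45 list the median was -0.012. Alveolar macrophages, monocytes and interstitial macrophages, plasma cells, thymus, ciliated cells, and mast cells and basophils each had 1 marker lower, and plasma cells also 1 higher. B cells, T cells, NK cells, platelets, red cells, skeletal muscle, cardiac muscle and fibroblasts had 0 in either direction. Cardiac muscle means spread from 5.93 to 9.40 in arsenite mice and from 6.35 to 9.61 in saline mice.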
